A study of Mus musculus with 9 samples.

Results

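Heat shock, DnaJ and chaperonin genes encode the protein-folding machinery of the cell, and they were examined here for non-methylated islands (NMIs) at their promoters in C127 cells, a mouse mammary epithelial line grown without any labelled stress or treatment. The members were chosen by symbol alone, as the GENCODE M21 protein-coding genes named Hspa, Hspb, Hspd, Hspe, Hsph, Hsp90, Dnaja, Dnajb, Dnajc or Cct, and 80 of 21938 protein-coding genes on chromosomes 1 to 19, X and Y met this rule. A gene was taken to have an NMI when the 5′ end of any of its transcripts, its transcription start site (TSS), lay inside an island. The islands came from 1 BioCAP library, in which sheared genomic DNA is bound to the CXXC domain of KDM2B, a protein module that holds CpG sites free of methylation. Libraries of open chromatin and of newly made RNA from the same line belong to the series and were not analysed here. There was no replicate BioCAP library, so every count below describes this library and carries at most a 95% exact (Clopper-Pearson) binomial interval for counting error.

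Hsp70 and Hsp90 proteins bind unfolded clients and release them with the use of ATP, DnaJ proteins (the Hsp40 family) bring clients to Hsp70 and start its ATPase, and the CCT chaperonin is a ring-shaped chamber that folds actin and tubulin. Some of these genes are switched on by heat through heat shock factor 1, some by unfolded protein in the endoplasmic reticulum (ER), many are made at a steady level in every cell, and a few are made almost only in male germ cells. CpG-rich promoters of vertebrate genes usually lie in islands without methylation, whereas promoters used in a single tissue are often poor in CpG.

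The list held 13491 NMIs, of which 13489 lay on the chromosomes used, and they marked 10425 of the 21938 protein-coding genes (47.5%). None of 9 epithelial marker genes (Cdh1, Epcam, Krt8, Krt18, Krt5, Krt14, Cldn3, Cldn4 and Cldn7) had an NMI, which is no measure of their expression. The list gave no enrichment or read count for an island, so depth is unknown here, and a gene without an NMI is one with none in this list, not one shown to be methylated.

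The promoters on which the results turn are shown first, so that their CpG content can be seen beside the island calls. Each is 300 bases of RefSeq sequence on build GRCm38.p6, from 250 before to 50 after the annotated start, written 5′ to 3′ on the strand of the gene, with CpG sites in capitals. Hspa1a (chr17:34972107-34972406, minus strand) and Hspa1b (chr17:34959189-34959488, minus strand) encode the heat-inducible Hsp70 itself, and Hspb1 (chr5:135887669-135887968, plus strand) encodes the small heat shock protein Hsp25. None of these 3 genes had an NMI at its TSS.
Hspa1a: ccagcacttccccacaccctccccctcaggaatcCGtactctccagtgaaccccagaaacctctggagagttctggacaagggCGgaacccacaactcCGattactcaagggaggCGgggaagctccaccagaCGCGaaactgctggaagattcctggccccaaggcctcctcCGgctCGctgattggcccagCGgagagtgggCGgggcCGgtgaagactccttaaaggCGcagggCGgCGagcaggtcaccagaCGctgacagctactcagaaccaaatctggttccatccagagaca
Hspa1b: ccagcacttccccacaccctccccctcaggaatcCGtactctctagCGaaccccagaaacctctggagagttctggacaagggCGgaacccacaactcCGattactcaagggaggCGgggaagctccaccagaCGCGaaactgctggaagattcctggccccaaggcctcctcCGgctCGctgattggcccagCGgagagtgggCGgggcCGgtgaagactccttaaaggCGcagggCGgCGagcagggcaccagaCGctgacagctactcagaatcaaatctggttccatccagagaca
Hspb1: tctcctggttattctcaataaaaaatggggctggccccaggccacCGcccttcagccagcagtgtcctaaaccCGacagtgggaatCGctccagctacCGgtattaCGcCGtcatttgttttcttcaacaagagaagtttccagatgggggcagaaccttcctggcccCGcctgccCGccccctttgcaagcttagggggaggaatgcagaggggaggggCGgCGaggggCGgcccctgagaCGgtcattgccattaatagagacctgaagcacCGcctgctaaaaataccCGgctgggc
Hspe1 (chr1:55087898-55088197, plus strand), the mitochondrial Hsp10 gene, and Hspa5 (chr2:34771840-34772139, plus strand), the gene of the ER chaperone BiP, are an island-bearing heat-inducible and an island-bearing ER stress-inducible member.
Hspe1: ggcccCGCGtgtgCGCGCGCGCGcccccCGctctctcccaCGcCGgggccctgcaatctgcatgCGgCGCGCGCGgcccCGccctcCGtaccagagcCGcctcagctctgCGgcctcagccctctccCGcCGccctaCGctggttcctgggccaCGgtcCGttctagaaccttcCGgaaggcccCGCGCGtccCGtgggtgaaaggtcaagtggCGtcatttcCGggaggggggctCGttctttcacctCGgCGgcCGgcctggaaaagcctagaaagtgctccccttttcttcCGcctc
Hspa5: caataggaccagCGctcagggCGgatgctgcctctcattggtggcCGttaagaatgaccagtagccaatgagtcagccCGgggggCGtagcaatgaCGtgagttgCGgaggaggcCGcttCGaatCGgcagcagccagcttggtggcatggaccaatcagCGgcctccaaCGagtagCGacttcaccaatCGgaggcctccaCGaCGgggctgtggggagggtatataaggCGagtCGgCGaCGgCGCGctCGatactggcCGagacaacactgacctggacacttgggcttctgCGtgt
Cct8 (chr16:87495820-87496119, minus strand), a subunit of the chaperonin ring, is a constitutive member with an NMI. Dnajb7 (chr15:81408224-81408523, minus strand) is the testis-restricted member without an NMI that had the fewest CpG sites.
Cct8: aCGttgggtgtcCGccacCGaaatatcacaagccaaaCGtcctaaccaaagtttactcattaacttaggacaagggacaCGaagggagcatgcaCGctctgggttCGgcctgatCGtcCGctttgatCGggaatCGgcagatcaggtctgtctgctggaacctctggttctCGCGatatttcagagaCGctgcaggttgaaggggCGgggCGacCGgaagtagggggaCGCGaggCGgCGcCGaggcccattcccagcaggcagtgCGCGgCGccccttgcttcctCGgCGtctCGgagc
Dnajb7: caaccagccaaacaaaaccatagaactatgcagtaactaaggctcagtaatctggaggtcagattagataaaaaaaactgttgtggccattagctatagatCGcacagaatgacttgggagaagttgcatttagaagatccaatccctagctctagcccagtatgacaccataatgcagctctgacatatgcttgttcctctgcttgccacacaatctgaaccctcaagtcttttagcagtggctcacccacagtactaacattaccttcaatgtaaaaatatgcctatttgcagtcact

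These 300 bases held 36 CpG sites in Hspe1, 28 in Cct8, 25 in Hspa5, 16 in Hspa1b, 15 in Hspa1a, 14 in Hspb1 and 1 in Dnajb7. The other testis-restricted members without an NMI held 3 (Cct8l1), 8 (Dnajb13), 9 (Dnajb8), 11 (Hspa1l), 13 (Hspb9) and 19 (Dnajb3). Some island-bearing promoters not printed held fewer CpG sites than Hspa1a, among them Dnajc10 (14), Hspb8 (13) and Dnajc24 (7), so the printed promoters do not show the overlap. The promoters of Hspe1, Hspa5 and Cct8 lay whole within an NMI, that of Hspa1b reached into one by 16 bp at its far upstream end, and those of Hspa1a, Hspb1 and Dnajb7 shared no base with one. The Hspa1a and Hspa1b promoters were identical at 296 of 300 positions. They differed by C44T, T47C, T249G and C276T, with the Hspa1a base first and positions counted from 1 at the 5′ end of the printed sequence.

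An NMI was present at 64 of the 80 members (80.0%, interval 69.6 to 88.1%), beside 47.5% of all protein-coding genes. The 16 members without one were Hspa1a, Hspa1b, Hspa1l, Hspa12b, Hspb1, Hspb3, Hspb7, Hspb9, Dnajb3, Dnajb7, Dnajb8, Dnajb13, Dnajc6, Dnajc15, Dnajc22 and Cct8l1. To compare the members by how they are used, most were placed in lists from general knowledge of where and when they are made. The lists were fixed with earlier results of these data known, so the differences between them are a description and not independent support. The share with an NMI ranged from all members of the constitutive and ER stress-inducible lists to 1 of 8 in the testis-restricted list.

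**Figure D1:**
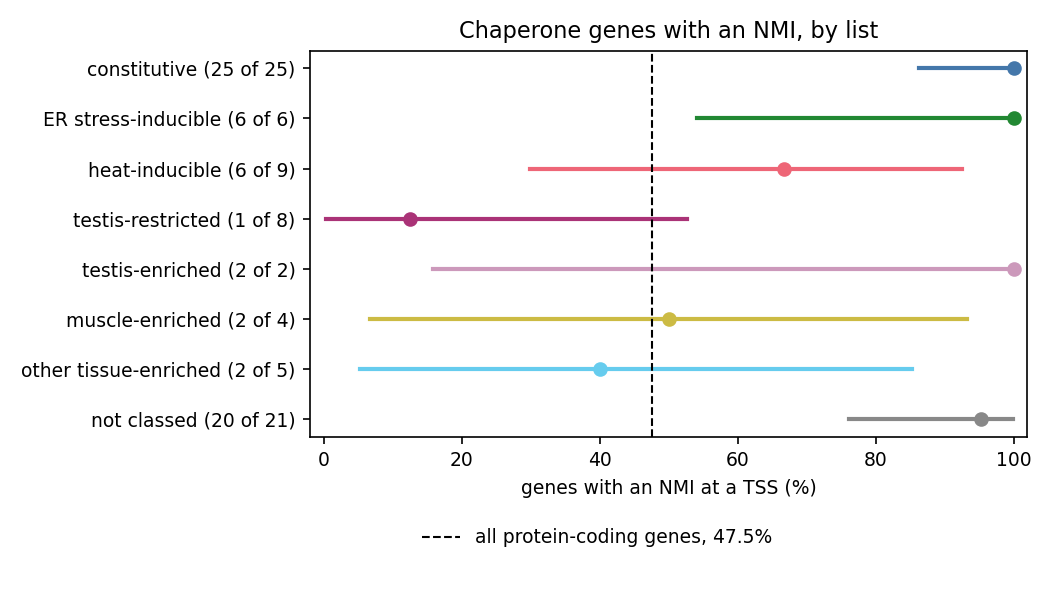
Share of genes with an NMI at a TSS (percent, horizontal axis) for each list of members, with points for the share, bars for 95% exact binomial intervals (counting error only) and a line at the share of all protein-coding genes, 47.5%. The constitutive list stands at 25 of 25 and the testis-restricted list at 1 of 8, with heat-inducible members between them at 6 of 9. The lists were fixed with earlier results of these data known.

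All 25 constitutive members had an NMI (interval 86.3 to 100.0%). These were Hspa4, Hspa8, Hspa9, Hspa14, Hsp90ab1, Cct2, Cct3, Cct4, Cct5, Cct7, Cct8, Dnaja2, Dnaja3, Dnajb6, Dnajb12, Dnajc2, Dnajc5, Dnajc7, Dnajc8, Dnajc9, Dnajc11, Dnajc13, Dnajc17, Dnajc19 and Dnajc21. Their islands were 836 to 2250 bp wide with a median of 1336 bp. Hspa8, the Hsp70 found in all cells, had an island of 2056 bp (chr9:40799836-40801891), and Hsp90ab1, the steady cytosolic Hsp90, one of 2077 bp (chr17:45572376-45574452). The narrowest of this list was at Dnajc19, a part of the mitochondrial import motor, at 836 bp.

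All 6 ER stress-inducible members also had an NMI, and every one of these islands was wider than the median of all genes. The widths were 2336 bp at Hsp90b1 (the ER Hsp90, chr10:86704408-86706743), 1725 bp at Hspa5 (chr2:34771289-34773013), 1628 bp at Dnajb11, 1433 bp at Dnajb9, 1366 bp at Dnajc10 and 1355 bp at Dnajc3. Dnajb9, Dnajb11, Dnajc3 and Dnajc10 encode J-proteins of the ER lumen that serve BiP. With 6 genes, the lower end of the interval for the share is 54.1%.

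Heat-inducible members were split, with an NMI at 6 of 9 (66.7%, interval 29.9 to 92.5%). The interval counts each gene as independent, although Hspd1 and Hspe1 share an island and Hspa1a and Hspa1b are near-identical copies. Dnajb1, the main cytosolic J-protein induced by heat, had an island of 1903 bp (chr8:83607635-83609537). Dnaja1, another cytosolic J-protein, had 1708 bp, Hsp90aa1, the inducible Hsp90, 1569 bp, and Hsph1, an Hsp110 that exchanges nucleotide on Hsp70, 1557 bp. Hspd1 (mitochondrial Hsp60) and Hspe1 lie on opposite strands with their starts overlapping, and their outermost TSSs are 111 bp apart. They shared 1 island of 1605 bp (chr1:55087187-55088791). The 6 genes with an NMI were thus all above the median width of all genes, while the others, Hspa1a, Hspa1b and Hspb1, had none. Dnaja1, Hspd1 and Hspe1 are also abundant without heat, and without them 3 of 6 heat-inducible members had an NMI.

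Only Cct6b among the 8 testis-restricted members had an NMI (12.5%, interval 0.316 to 52.7%), of 1121 bp (chr11:82763828-82764948). Cct6b encodes the germ-cell form of a chaperonin subunit, and its TSS lies 24 bp from that of Zfp830, a protein-coding gene on the opposite strand whose TSS was in the same island. The 7 without an NMI were Hspa1l (the Hsp70 of spermatids), Hspb9 (a small heat shock protein of testis), the J-protein genes Dnajb3, Dnajb7, Dnajb8 and Dnajb13, and Cct8l1, a chaperonin-like gene. Hspa2 (the Hsp70 of meiotic spermatocytes) and Hspa4l (an Hsp110 of male germ cells), which are enriched in testis but also made elsewhere, both had an NMI, of 976 bp and 1763 bp. Counted together with these, 3 of 10 testis members had an NMI.

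Muscle-enriched small heat shock genes had an NMI in 2 of 4 cases, near the 47.5% of all protein-coding genes. The islands were 2104 bp wide at Hspb6 and 1443 bp at Hspb2, and Hspb3 and Hspb7 had none. Of 5 members enriched in other tissues, Hspa12a (1095 bp) and Dnajc12 (603 bp) had an NMI, and Hspa12b (a distant Hsp70 relative made in endothelium), Dnajc6 (auxilin, which uncoats clathrin vesicles in neurons) and Dnajc22 did not. In the remaining 21 members, placed in no list, the exception among 20 genes with an NMI was Dnajc15, known as methylation-controlled J protein, a J-protein of mitochondria. The 20 with an NMI were Hspa13, Hspb8, Hspb11, Hspbap1, Hspbp1, Dnaja4, Dnajb2, Dnajb4, Dnajb5, Dnajb14, Dnajc1, Dnajc4, Dnajc14, Dnajc16, Dnajc18, Dnajc24, Dnajc25, Dnajc27, Dnajc28 and Dnajc30, with a median width of 1072.5 bp. The nearest NMI to Dnajc15 lay 354720 bp away, the largest such distance among the 16 members without an NMI.

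Set out by protein family, every member had an NMI in Hsp90 (3 of 3), Hsp110 (3 of 3), Hsp60 and Hsp10 (2 of 2), Dnaja (4 of 4) and the Hsp-binding genes Hspbap1 and Hspbp1 (2 of 2). The chaperonin had 7 of 8, Dnajc 23 of 26, Dnajb 9 of 13, Hsp70 7 of 11 and the small heat shock proteins 4 of 8, beside 47.5% of all protein-coding genes. In the Hsp70 family, the genes with an NMI were those of the cytosol (Hspa8, Hspa14), the mitochondrion (Hspa9, 1427 bp), the ER (Hspa5, and Hspa13 with 1431 bp), the germ line (Hspa2) and Hspa12a. Hspa14, which works at the ribosome, had an island of 1284 bp. The pair of inducible Hsp70 genes, their testis neighbour Hspa1l, and Hspa12b had none. The small heat shock family was near the share of all protein-coding genes. Hspb2, Hspb6, Hspb8 (1217 bp) and Hspb11 (1528 bp, a part of the ciliary transport machinery) had an NMI, and Hspb1, Hspb3, Hspb7 and Hspb9 had none.

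Chaperonin subunits had islands of 2250 bp at Cct3, 2182 bp at Cct7, 1724 bp at Cct5, 1367 bp at Cct4, 1243 bp at Cct8 and 1242 bp at Cct2. The ring is built of different subunits in fixed places, and the 2 subunit genes outside the rule had islands as well: Tcp1, the alpha subunit, one of 1800 bp, and Cct6a, which GENCODE M21 types as a processed transcript, one of 1469 bp (chr5:129786592-129788060). All 8 genes of the somatic ring therefore had an NMI. Among the ring-like genes of the germ line, Cct6b had one and Cct8l1 did not.

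Widths ran from 258 to 2556 bp over the 64 members with an NMI, with a median of 1345.5 bp (interval for the median 1217 to 1443 bp) and quartiles of 1077 and 1648 bp. All protein-coding genes with an NMI had a median of 1210 bp and quartiles of 921 and 1592 bp. The widest member island was at Dnajc14, an ER J-protein gene, and stood at percentile 96.2 of all genes with an NMI, while that of Dnajc28 was the narrowest and stood at percentile 0.604. The Dnajc family thus held both ends of the range. After Dnajc14, its widest islands were at Dnajc7 (1863 bp) and Dnajc13 (1413 bp), and above Dnajc28 its narrowest were at Dnajc12 (603 bp) and Dnajc27 (633 bp).

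**Figure D2:**
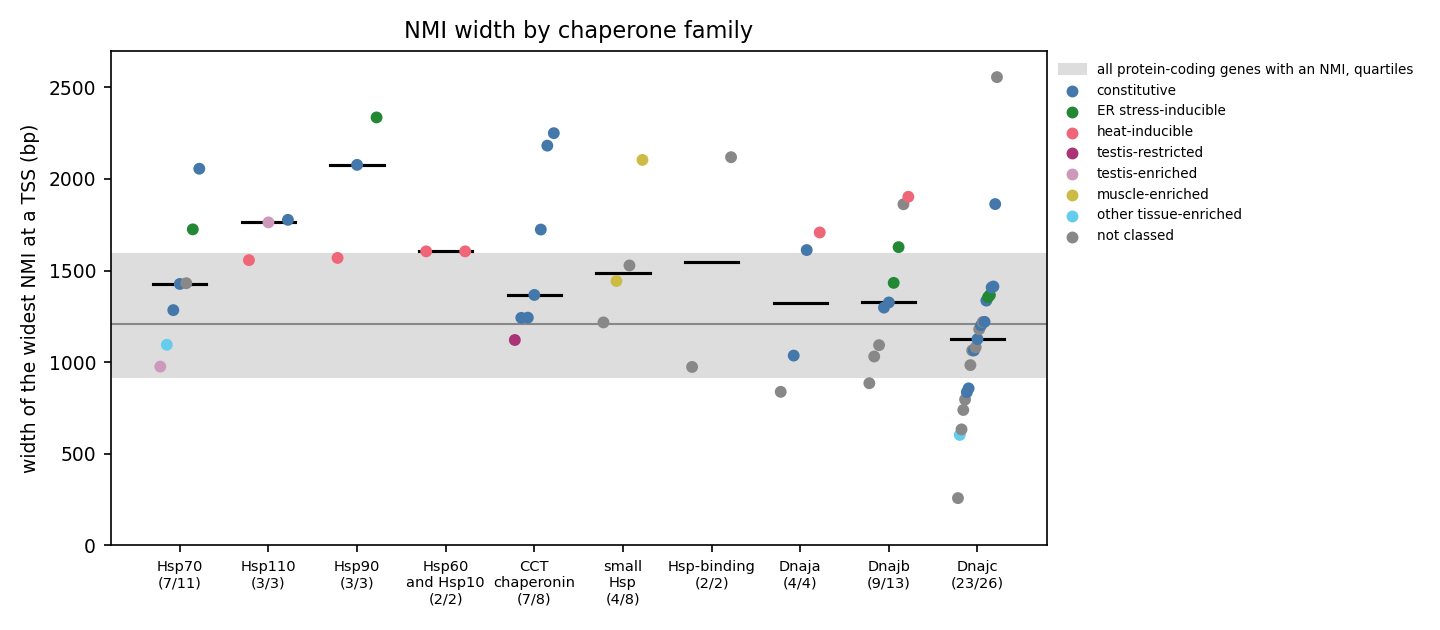
Width in bp of the widest NMI at a TSS of each of the 64 members with an NMI, by protein family, with colours for the lists, black bars for family medians, and in brackets the number with an NMI over the number of members. The grey line and band are the median, 1210 bp, and quartiles of all protein-coding genes with an NMI, and the Hsp110, Hsp90, Hsp60 and Hsp10 points all lie above that line.

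In the Dnaja family the widths were 1708 bp at Dnaja1, 1612 bp at Dnaja2, 1036 bp at Dnaja3 and 838 bp at Dnaja4. The Dnajb family was led by Dnajb1, Dnajb4 (1862 bp) and Dnajb11, and its narrowest islands were at Dnajb5 (885 bp), Dnajb2 (1031 bp) and Dnajb14 (1093 bp). Hspbap1, a partner of small heat shock proteins, had 2119 bp, and Hspbp1, an Hsp70 nucleotide exchange factor, 974 bp. Hspa4, the Hsp110 made in all cells, had 1777 bp, close to the 1763 bp of its germ-line relative Hspa4l. Widths in 1 library have no error, so neighbours in this order cannot be told apart beyond their positions in the list.

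The islands did not sit evenly around the TSS. From the first TSS inside them, they ran a median of 498.5 bp upstream and 781.5 bp downstream, and 49 of 64 (76.6%) were longer on the downstream side. Over all 10425 genes with an NMI, the medians were 389 and 748 bp, and 78.6% were longer downstream. Hspa2 was among the exceptions, with 813 bp upstream and 162 bp downstream. Hspbap1 had 1717 bp upstream and 401 bp downstream, whereas Dnajc14 had 310 and 2245 bp and Dnajc7 25 and 1837 bp. At 6 members (Dnaja4, Dnajc18, Dnajc25, Hspa4l, Hsp90aa1 and Hspb2) the outermost TSS lay outside the island and another TSS of the gene lay inside it.

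**Figure D3:**
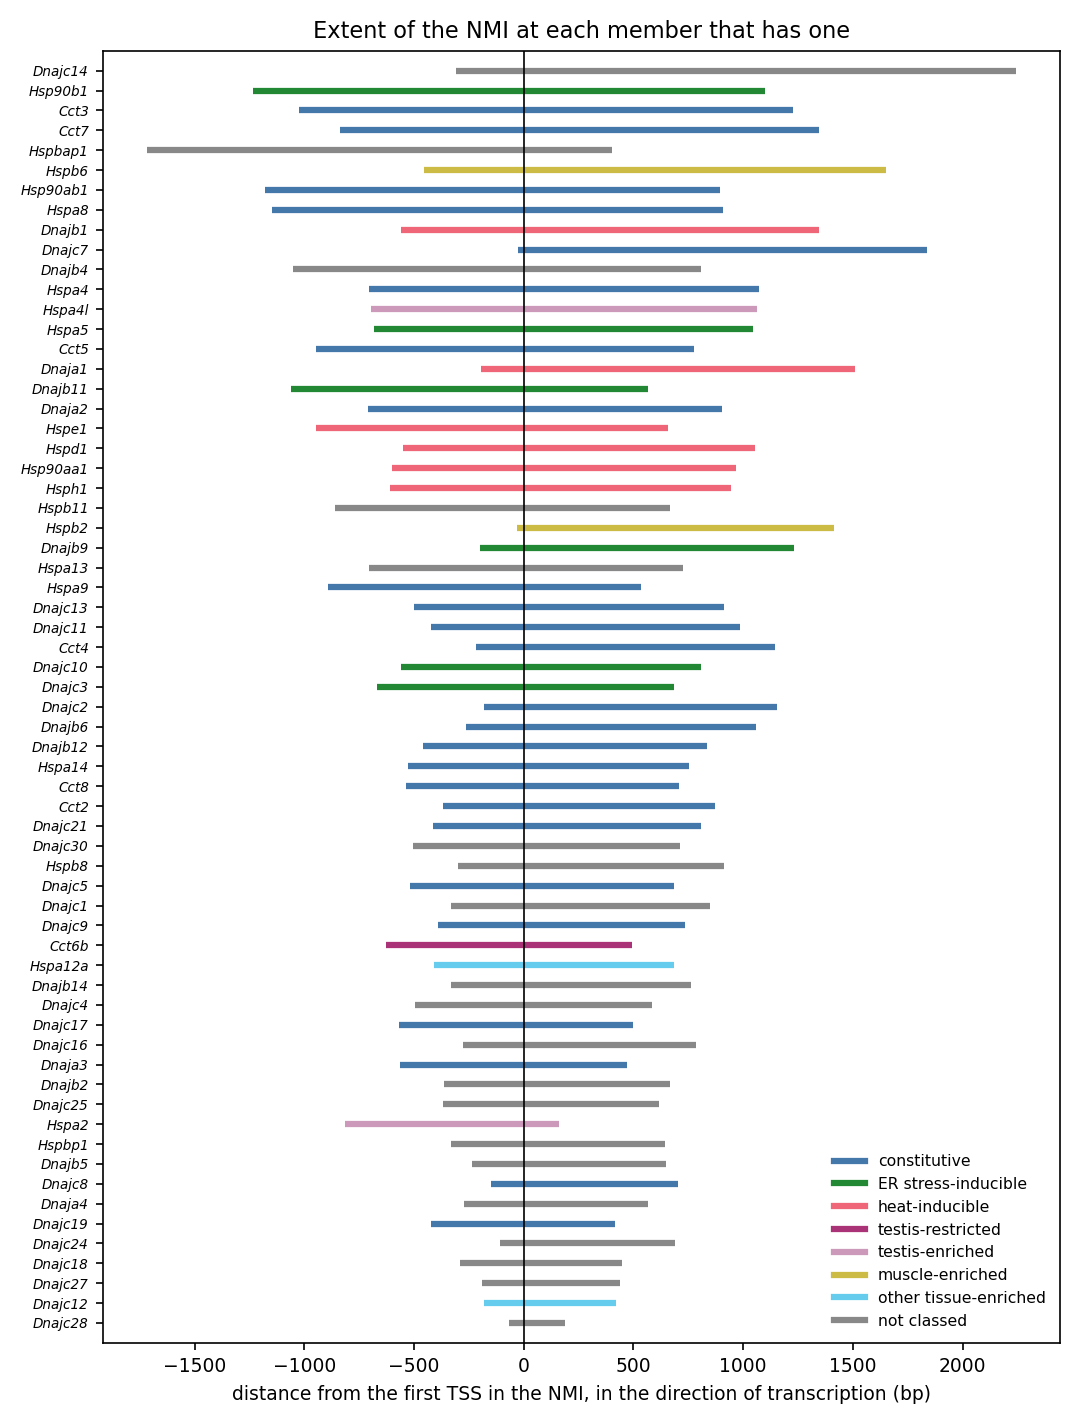
Extent of the NMI around the TSS in the 64 members with an NMI, as a bar per gene running from its upstream to its downstream edge (bp, 0 at the first TSS inside the island, downstream to the right), with colours for the lists. Most bars, 49 of 64, reach farther downstream, and Hspbap1 reaches farthest upstream at 1717 bp.

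Many member islands also covered the start of a neighbouring gene. At 23 of the 64 members (35.9%) the NMI also held the TSS of a protein-coding gene on the opposite strand, beside 21.0% of all genes with an NMI. The closest pairs were Cct6b with Zfp830 (24 bp between TSSs), Dnajc2 with Psmc2 (32 bp), Cct5 with Fam173b (48 bp) and Hspb11 with Lrrc42 (61 bp). Psmc2 encodes a proteasome subunit, so that a ribosome-bound chaperone and a part of the protein-degrading machine had a start region in common. Pairs from 104 to 308 bp apart were Dnajc18 with 1700066B19Rik, Hspd1 with Hspe1, Cct3 with Tsacc, Dnajb4 with Fubp1, Hspb6 with Proser3, Dnajb11 with Tbccd1, Dnajc17 with Zfyve19, Hspa14 with Cdnf, Dnajb1 with Tecr, Hspa12a with Eno4, Dnajb6 with Gm5129, Hsp90b1 with Ttc41 and Dnajc14 with Tmem198b. The widest spacings were Cct7 with Pradc1 (456 bp), Dnajc30 with Bud23 (464 bp), Dnajc7 with Nkiras2 (924 bp), Hspb2 with Cryab (968 bp) and Hspbap1 with Dirc2 (1019 bp).

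Hspb2 and Cryab are themselves 2 small heat shock genes, both made in muscle, that shared 1 island of 1443 bp (chr9:50750881-50752323), most of it, 1412 bp, downstream of the Hspb2 TSS it holds. The other islands with a neighbour held same-strand genes or non-coding genes: Gm20503 at Dnajc25, Gm45902 at Hspa14, B130034C11Rik at Cct8, Gm6297 and Mir207 at Dnaja1, Mir5627 at Dnajb9, Gm37563 at Dnajc13, Dcdc5 at Dnajc24, Gm25745 at Hsp90b1, 4930426I24Rik at Hspa2 and Gm38670 at Hspb6. In all, 30 members (46.9%) shared their island with the TSS of any other gene, beside 35.4% of all genes with an NMI.

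NMIs also overlapped member genes away from their own TSSs, in 7 places at genes with an island of their own and in 1 at a gene without. These were 137 and 1128 bp wide in Dnaja3 (the wider at the TSS of Coro7), 144 bp in Dnajb5, 532 bp in Dnajc17, and 312 and 121 bp in Hspa12a. Another, of 1084 bp, overlapped only the 3′ end of Dnajc4 and lay mostly beyond it, at the TSS of Vegfb. The last was in Dnajc22, where an island of 1256 bp (chr15:99098104-99099359) held no annotated TSS and came within 53 bp of one of the gene's own starts.

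Sequence composition at the TSS differed in its median between members with an NMI and those without, and the ranges overlapped. They were 1.10 to 12.1 CpG per 100 bp with an NMI and 1.30 to 8.39 without. Counted 500 bp to either side of the outermost TSS, members with an NMI had a median of 6.74 CpG per 100 bp and those without 3.55. The medians of the ratio of observed to expected CpG, which corrects for base content, were 0.789 and 0.450. All protein-coding genes gave 6.49 and 1.40 CpG per 100 bp, so the members without an NMI had a higher median than genes without an NMI in general. These values come from the reference sequence and not from the library.

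**Figure D4:**
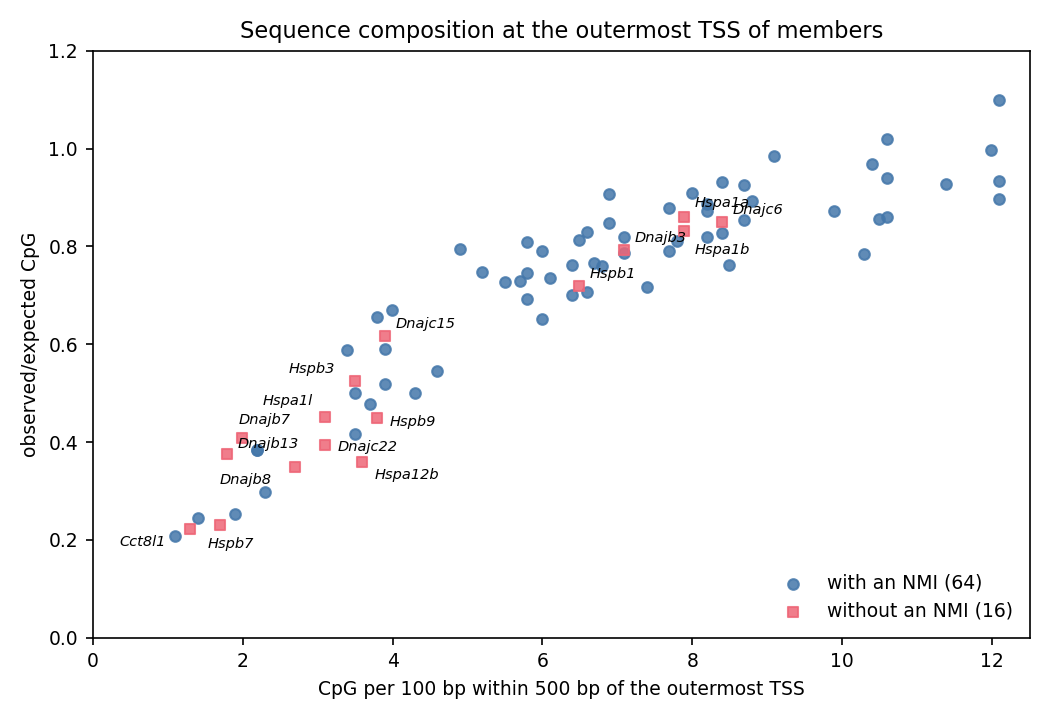
CpG per 100 bp (horizontal axis) against the ratio of observed to expected CpG (vertical axis) up to 500 bp either side of the outermost TSS in the 80 members, with blue circles for genes with an NMI and red squares for genes without. Most squares lie at low values, and 5 of them (Dnajb3, Dnajc6, Hspa1a, Hspa1b and Hspb1) lie among the circles at 6 or more CpG per 100 bp.

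Read against genes of like CpG density, the share of members with an NMI lay above that of all genes in each of the 4 density classes that held members, over 7 to 44 members a class and with no test made. Density was taken at the outermost TSS, whereas an NMI at any TSS counted, in members and in all genes. With 1 to 2 CpG per 100 bp, 3 of 7 members had an NMI beside 13.0% of all genes. These 3, Dnajc18 (1.10), Dnajc25 (1.40) and Hspb2 (1.90), had it at another TSS and not where density was measured. The same held for Hsp90aa1 and Hspa4l (2.20 each) and Dnaja4 (4.30) in the next classes. Those without an NMI were Cct8l1 (1.30), Hspb7 (1.70), Dnajb13 (1.80) and Dnajb7 (2.00, just under the bound). With 2 to 4, 11 of 18 members had one beside 34.9%, and those without were Dnajb8 (2.70), Dnajc22 (3.10), Hspa1l (3.10), Hspb3 (3.50), Hspa12b (3.60), Hspb9 (3.80) and Dnajc15 (3.90). With 4 to 6, 11 of 11 members had one beside 72.9% of genes, and with 6 or more, 39 of 44 beside 82.8%. No member had under 1 CpG per 100 bp. Of the 7 testis-restricted genes without an NMI, 6 were thus at or under 3.80 CpG per 100 bp, and Dnajb3, at 7.09, was the exception.

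The 5 CpG-rich members without an NMI were Dnajc6 (8.39 CpG per 100 bp), Hspa1a and Hspa1b (7.89 each), Dnajb3 (7.09) and Hspb1 (6.49). Hspa1a, Hspa1b and Hspb1, which are all the heat-inducible members without an NMI, had a near-identical copy elsewhere in the genome, while Dnajc6 and Dnajb3 had none. A copy was counted where at least 50 bp of the window of 500 bp to either side of the TSS aligned elsewhere with at least 98% identity, and it covered 78.3% of the window of Hspa1a, 78.3% of that of Hspa1b and 41.8% of that of Hspb1. In 4 other members the copied share was 11.4% (Dnaja1), 11.4% (Dnajc16), 9.69% (Dnajb6) and 5.79% (Dnajc27), all of them with an NMI, and in the other 73 members it was 0.

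Among all genes with 6 or more CpG per 100 bp, an NMI was present in 82.5% of 6617 genes with no such copy, in 96.8% of 437 genes with a copy of under 40% of the window, and in 33.3% of 84 genes with a copy of 40% or more. The members in these classes were 36 of 38, 3 of 3 and 0 of 3. Reads without a unique position had been discarded by the authors. The part of this in the missing islands of Hspa1a, Hspa1b and Hspb1 was not tested, since no reads or signal were used. The bound of 40% lies just under the 41.8% of Hspb1. Without the 3 genes, 6 of 6 heat-inducible members and 64 of 77 members in all had an NMI. This recount was chosen after seeing the data. The 3 genes are all the heat-inducible members without an NMI, so 6 of 6 was fixed in advance and is no support.

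Hspa1a and Hspa1b lie on chromosome 17 as a tandem pair, both single-exon genes on the minus strand, with the testis gene Hspa1l running the other way from beside Hspa1a. A stretch of 2484 bp aligned between the copies at 99.0% identity, from 34957039 to 34959521 at Hspa1b and from 34969960 to 34972439 at Hspa1a, and it ended 283 bp upstream of the Hspa1b TSS. The nearest NMI to Hspa1b (chr17:34959473-34960426) was 954 bp wide and began 235 bp upstream of its TSS. Of that island, 49 bp lay inside the near-identical stretch and 905 bp lay outside, in sequence upstream of it. It had 2.52 CpG per 100 bp and an observed/expected ratio of 0.424, beside 7.89 CpG per 100 bp around the Hspa1b TSS itself. Hspa1a had no NMI within 9391 bp and Hspa1l none within 8844 bp, the nearest to both being the island at Lsm2 and Gm10501.

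**Figure D5:**
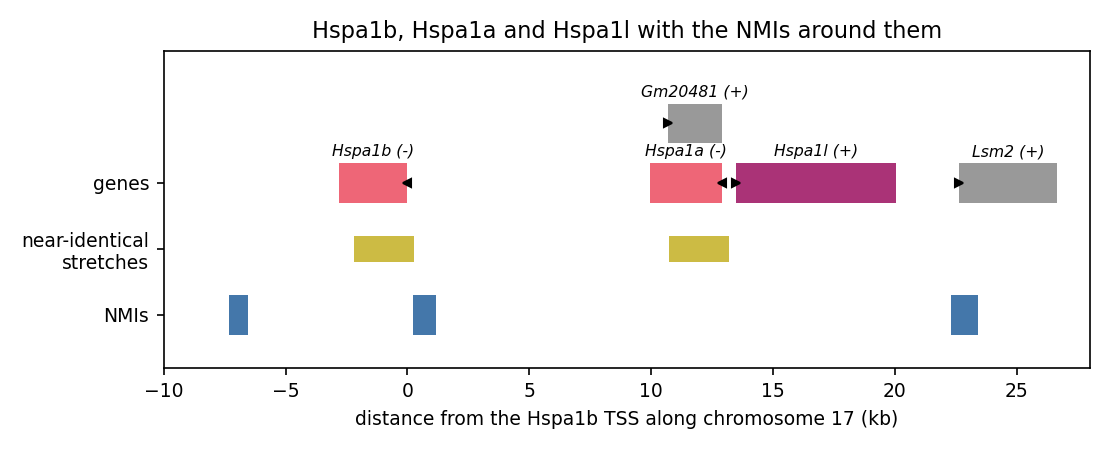
The Hspa1 genes drawn to scale as distance from the Hspa1b TSS (kb), with genes, near-identical stretches and NMIs on separate lines. The NMI beside Hspa1b, 954 bp wide, touches the edge of the near-identical stretch, and no NMI lies over either copy of it apart from those 49 bp.

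The coding sequences of Hspa1a and Hspa1b were 99.4% identical and those of Hspa1a and Hspa1l 82.9%. The promoters of Hspa1a and Hspa1l were 44.1% identical over an alignment with gaps, and those of Hspa1a and Hspa2 51.1%. Hspa1l thus resembled Hspa1a in its protein-coding part and not in the 300 bases of its promoter, which are not printed here. At Hspb1 the copy was 418 bp long at 99.8% identity, on chromosome 13 from 45078767 to 45079184 at the processed pseudogene Hsp25-ps1, and it covered the window from 83 to 500 bp downstream of the TSS. The 300 bases printed above for Hspb1 therefore lie outside the copied part. The nearest NMI to Hspb1 was 9655 bp away.

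Distances to an island set the other members without one apart. Dnajc22 (53 bp) and Hspa1b (235 bp) were within 250 bp, and Hspb9 was 1145 bp from the island of Kat2a, the gene of a histone acetyltransferase. Dnajb7 lay 7752 bp from the island of St13 and Xpnpep3, and St13 encodes an Hsp70-interacting protein. Cct8l1 (13136 bp, 1700096K18Rik), Dnajb13 (21902 bp, Coa4), Dnajb8 (22999 bp, Gata2), Hspb7 (23619 bp, Zbtb17), Hspa12b (30561 bp), Hspb3 (44845 bp, Snx18), Dnajb3 (71042 bp, Hjurp and Trpm8) and Dnajc6 (96427 bp, Leprot) were all 13136 bp or more from one, with the genes whose TSS the island holds in brackets.

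Members were also set out by gene structure. Of 9 members whose coding transcripts all have a single exon, only Dnajc30, a J-protein of mitochondria, had an NMI (1219 bp, a share of 11.1% with an interval of 0.281 to 48.2%), near the 16.9% (228 of 1349) of all protein-coding genes of this structure. The 8 others were Hspa1a, Hspa1b, Hspb3, Hspb9, Dnajb3, Dnajb7, Dnajb8 and Cct8l1. Of the 71 members with a coding transcript of 2 or more exons, 63 had an NMI (88.7%), beside 49.5% (10153 of 20504) of all protein-coding genes with such a transcript. Single-exon structure, testis restriction and low CpG density overlap in these members and cannot be told apart at this number of genes.

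To see which members carry the letters that heat shock factors bind, the RefSeq promoters were searched on both strands for GAA, TTC and GAA with 2 bases of any kind between neighbours, an array of 3 alternating units of the heat shock element. Promoters were found for 66 of the 80 members, among 16522 protein-coding genes, and those not found were Cct4, Dnajc2, Dnajc5, Dnajc11, Dnajc12, Dnajc18, Dnajc22, Dnajc30, Hsp90aa1, Hsp90ab1, Hspa8, Hspa9, Hspa13 and Hspb2. The full array was present in 4 of 66 members, Hspd1, Hspe1, Hsph1 and Dnajb6, and in 95 of the 16522 genes (0.575%). By list this was 3 of 8 heat-inducible, 1 of 18 constitutive, 0 of 6 ER stress-inducible and 0 of 8 testis-restricted members. The matches are printed with 6 flanking bases and the array in capitals. The same stretch of letters lies before the Hspe1 start and before an inner start of Hspd1.
Hspe1, first match, 89 to 77 bases before the start: ggtccgTTCTAGAACCTTCcggaag
Hspe1, second match, 84 to 72 bases before the start: gttctaGAACCTTCCGGAAggcccc
Hsph1, 15 to 27 bases after the start: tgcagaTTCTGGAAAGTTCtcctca
Dnajb6, 46 to 34 bases before the start: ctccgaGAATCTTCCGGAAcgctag

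The Hspe1 matches overlap, and both are the same bases of chromosome 1 that match in an Hspd1 promoter on the other strand. There they run from 144 bases before an inner Hspd1 start onward. These matches lie downstream of the outermost Hspd1 TSS, at position 55088243. They lie inside the shared island of 1605 bp. The shorter inverted pair GAANNTTC, which is contained in the array, was found in 15 of 66 members and in 8.44% of genes. It was present in 7 of 8 heat-inducible members (Dnaja1, Hspa1a, Hspa1b, Hspb1, Hspd1, Hspe1 and Hsph1, with Dnajb1 the one without), in 2 of 18 constitutive members (Cct2 and Dnajb6) and in 1 testis-restricted member (Cct8l1). The pair was thus found in all 3 heat-inducible genes without an NMI and in 4 of the 5 with an NMI whose promoter was searched. The Hspa1a and Hspa1b promoters are near-identical and those of Hspd1 and Hspe1 overlap, so these genes are not independent cases. A match is a description of the letters and not a bound site.

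The ER stress element was searched as CCAAT and CCACG with 9 bases of any kind between them. It was found in 3 of 66 members, all of them ER stress-inducible (Hspa5, Hsp90b1 and Dnajc3), and in 28 of 16522 genes (0.169%). Hsp90b1 had a match on each strand. All 4 matches are given with the element in capitals, on the strand of the gene.
Hspa5, 65 to 47 bases before the start: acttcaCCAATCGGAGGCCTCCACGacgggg
Dnajc3, 105 to 87 bases before the start: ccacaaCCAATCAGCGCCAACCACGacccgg
Hsp90b1, 212 to 194 bases before the start: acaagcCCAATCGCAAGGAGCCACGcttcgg
Hsp90b1, 107 to 89 bases before the start, on the other strand: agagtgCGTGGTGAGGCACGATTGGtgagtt

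The CCAAT box, which the ER stress element contains, was found in 27 of 66 members (40.9%), beside 42.1% of genes. It was present in 6 of 8 heat-inducible, 5 of 6 ER stress-inducible, 6 of 18 constitutive and 5 of 8 testis-restricted members. The TATA letters TATAAA were found in 4 of 66 members, Dnajc19, Dnajc24, Hspb3 and Hspb6, beside 14.3% of genes. No heat-inducible, ER stress-inducible or testis-restricted member had TATAAA in this window, which says nothing of a start that uses other letters.

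The wider chaperone network was read from 7 lists of genes outside the rule, and 39 of their 46 genes had an NMI, beside 47.5% of all protein-coding genes. Of the heat shock factors, Hsf1 (1961 bp), the main activator of the heat response, and Hsf2 (1333 bp) had one, and Hsf4 (a factor of the lens) and Hsf5 (of the testis) did not. The Hsp90 co-chaperones had one at 11 of 12 genes, the exception being Unc45b, the muscle myosin chaperone, whose nearest NMI was 1851 bp away, while its relative of other tissues, Unc45a, had one of 1766 bp. All 11 Hsp70 nucleotide exchange factors and helpers, all 6 prefoldin subunits, which hand clients to the chaperonin, and all 3 chaperonin-like Bardet-Biedl genes (Mkks, Bbs10 and Bbs12) had an NMI. Among J-proteins named otherwise, Hscb, Sec63 and Gak had one and Dnajc5b and Dnajc5g did not. Gak (880 bp) is the auxilin of most tissues, and its neuronal relative Dnajc6 was without an NMI. Of the other chaperones of these families, Tcp1, Trap1 (1122 bp, the mitochondrial Hsp90) and Cryab had one, and Cryaa, a lens crystallin, and Odf1, a sperm tail protein, did not.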

How the data were processed

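The members and lists were chosen with earlier results of these data known. The series holds 9 samples labelled as C127 cells, of which the 1 BioCAP sample was used, through its list of NMIs. The 1 BioCAP input, 3 ATAC, 1 ATAC input and 3 4sU RNA samples were not analysed here.

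According to the study's methods, reads were aligned to mm10 with Bowtie2, those with no unique position and duplicates were dropped, and islands were called with MACS. The submitters' processing notes name Bowtie2, SAMtools, STAR and MACS2. The methods state a false discovery rate as the threshold, and a matched control for data with replicates. Tool versions, and whether the input was the control for the single BioCAP library, were not given in the sources used here. The deposited list holds positions alone (chromosome, start and end), which are neither counts nor signal, and the starts were shifted to count from 1. Positions in near-identical copies can lose reads, and weak islands can miss the threshold.

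TSSs came from GENCODE M21 on GRCm38, whose coordinates are those of mm10. Composition was counted within 500 bp of the outermost TSS. Copies were found by aligning that window to the genome with BLAST 2.17.0 (at least 50 bp at 98% identity). Motifs were counted in the RefSeq promoter table (GRCm38.p6, 250 bases before to 50 after the start). Python 3.11.15 with numpy 2.4.6, pandas 2.3.3, SciPy 1.17.1, pysam 0.24.0 and Biopython 1.88 was used, and the counting steps were tested on simulated data. No significance test was made, since there was 1 library. Named genes were every member without an NMI, the heat-inducible, ER stress-inducible and testis-restricted lists, the Hsp70, Hsp90 and chaperonin genes, the 3 widest and 3 narrowest islands of each other family, pathway genes without an NMI and genes that share an island with a member. The other members named were named to account for every member, and the alternatives tried are given in the closing section. From the pathway lists as first drawn up, 1 gene was left out of every count and is not reported here.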

Additional observations from a re-analysis of the deposited data

How the results depend on the processing

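No paired analysis was possible because there was 1 BioCAP library and no test. Of 63 recounts of 10 results, 56 stayed within 1.5 times the main count, or within the interval of the median width. This scoring compared counts and not shares. Leaving out near-identical copies removed only Hspa1a, Hspa1b and Hspb1, which had no NMI, so the counts with an NMI could not change. Heat-inducible members went from 6 of 9 to 6 of 6 in this way and were still scored as unchanged. The members with an NMI numbered 58 (the outermost TSS alone) to 66 (a TSS within 250 or 1000 bp), where all genes gave 42.5% and 48.2 to 49.0%. With the outermost TSS alone, 1 of 2 testis-enriched and 1 of 4 muscle-enriched members had an NMI, because Hspa4l and Hspb2 have theirs at another TSS. Adding the testis-enriched members gave 3 of 10 for testis, and leaving out Dnaja1, Hspd1 and Hspe1 gave 3 of 6 for heat-inducible members. The heat shock array was in 8 of 66 members with 1000 bases before the start (2.23% of genes), the inverted pair in 15, and the array with at most 1 mismatch in 17 (7.46% of genes). That last search, and leaving out the members with near-identical copies, were chosen after seeing the data. Lists of under 10 genes, 1 library and islands without scores limit every share given here.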

Other observations

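The 6 members with the outermost TSS outside their island were 9.38% of those with an NMI, beside 10.5% over all genes. In Hsp90aa1, 5 of 8 distinct TSSs lay in the island and the outermost lay in sequence of 2.20 CpG per 100 bp, whereas the island itself had 9.62. In Dnajc25 the same pair of values was 1.40 and 9.76, and in Dnaja4 it was 4.30 and 12.1, the highest CpG density of the member islands named here.

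A few islands were poor in CpG. The ratio of observed to expected CpG was 0.399 in the island of Hspb8, 0.413 in that shared by Hspb2 and Cryab, 0.509 at Hspbp1 and 0.529 at Dnajc4. Hspb8, Hspb2 and Hspb6 (0.535) are small heat shock genes, and the island of the fourth small heat shock gene with an NMI, Hspb11, stood at 0.697.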
